A study of Mus musculus with 12 samples.

Results

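ABC transporters are membrane pumps and related ATPases that share a nucleotide-binding domain. Their messenger RNA was followed in mpkCCDc11 cells, a cloned line from the cortical collecting duct of the mouse kidney. The genes were taken by symbol, from Abca to Abcg with a number, and were selected on the measured counts, since each had to reach 10 counts in 3 or more of the 12 libraries. Abca1 and Abcg1 were left out by name. Of 50 protein-coding ABC symbols in a table of 45777 genes, 27 were kept, namely 5 of 16 in subfamily A, 7 of 10 in B, 6 of 10 in C, 3 of 4 in D, the 1 in E, 3 of 3 in F and 2 of 6 in G.

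The study asked how TAZ, the Hippo pathway coactivator encoded by Wwtr1, acts on the vasopressin-regulated water channel aquaporin-2. The 4 groups were TAZ siRNA with dDAVP, control siRNA with dDAVP, TAZ siRNA with vehicle and control siRNA with vehicle, with 3 libraries each. dDAVP, an agonist of the vasopressin V2 receptor, was applied at 1e-09 M to the basolateral side, and the exposure time of these libraries is not stated. Every group was wild type, had grown for 3 days on permeable filters and had then been held for 24 h without serum and hormones. The siRNA was delivered with a transfection reagent, and separate cultures within a group are not stated in the labels. The p-values therefore rest on the variation among these 12 libraries, part or all of which may be technical.

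Each functional ABC protein joins a pair of ATP-binding domains that close on ATP and drive a transport step or, in subfamilies E and F, an action on the ribosome. Subfamily A moves lipids, B holds the multidrug pumps and several mitochondrial transporters, C holds the exporters of glutathione and glucuronide conjugates, and D carries acyl-CoA into peroxisomes. G holds single-domain transporters such as ABCG2, which exports urate and many drugs. In kidney tubules ABCC and ABCG pumps are known for clearing organic anions and conjugated xenobiotics, and ABCC4 is known to export cyclic AMP, the second messenger of the V2 receptor.

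The shared fold can be read in the coding sequence. The signature motif follows the ATP-binding P-loop in each nucleotide-binding domain, and a search between 60 and 130 codons after a P-loop found it in 26 of the 27 genes, all but Abcd4. The segments below come from GENCODE M21 transcripts of GRCm38, the assembly also called mm10, and are shown for 9 genes whose level changed in at least 1 comparison and for the multidrug pair Abcb1a and Abcb1b. Each is the first such site of the gene, 45 bases in coding direction, and the capitals mark the 5 codons of the motif.
Abcc3: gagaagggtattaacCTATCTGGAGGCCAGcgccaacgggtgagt
Abcc1: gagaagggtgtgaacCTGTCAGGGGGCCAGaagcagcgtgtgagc
Abcc4: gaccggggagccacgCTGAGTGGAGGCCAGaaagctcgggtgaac
Abcc5: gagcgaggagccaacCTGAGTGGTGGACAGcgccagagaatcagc
Abcg2: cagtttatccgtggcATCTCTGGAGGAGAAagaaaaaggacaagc
Abca2: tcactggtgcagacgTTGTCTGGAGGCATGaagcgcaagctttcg
Abca7: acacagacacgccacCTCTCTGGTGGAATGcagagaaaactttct
Abcd3: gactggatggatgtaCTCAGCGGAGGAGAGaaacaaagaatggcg
Abcf2: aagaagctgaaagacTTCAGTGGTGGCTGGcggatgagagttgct
Abcb1a: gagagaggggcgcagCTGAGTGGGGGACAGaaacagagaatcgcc
Abcb1b: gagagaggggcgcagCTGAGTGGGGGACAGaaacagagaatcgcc
The Abcc3 site spans exons 17 and 18 on the minus strand (chr11:94361779-94363438), and the Abcg2 site lies in exon 6 on the plus strand (chr6:58666891-58666935). Abcc1 and Abcc3 were identical at 34 of the 45 positions at this site, and the median over 620 pairs of sites of different genes was 21 of 45. Abcb1a and Abcb1b did not differ at any of the 45 positions at either of their sites. Of the 50-base words of their transcripts, 17.6% of those of Abcb1a and 11.6% of those of Abcb1b occur in another gene's transcripts, so the division of counts between this pair is uncertain. Abcc3, Abca2, Abca7 and Abcc5 share no 50-base word with another gene. For Abcb6 the figure was 50.0%, shared with a read-through transcript, and its counts are uncertain too.

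Levels per transcript length, as the TPM values the authors deposited, were highest for a peroxisomal transporter and for ATPases of the ribosome. Mean TPM over the 12 libraries was 153 for Abcd3, which carries branched-chain and dicarboxylic acyl-CoA into peroxisomes, and 147 for Abce1, which recycles ribosomes after termination. Abcf1, which acts in translation initiation, stood at 134, Abcf2 at 129, and the glutathione-conjugate exporter Abcc1 at 94.1 TPM. These 5 genes held 53.6% of the summed TPM of the 27. The lipid transporters Abca2 and Abca3 followed with 88.7 and 79.6 TPM, and the cyclic nucleotide exporter Abcc4 with 66.5.

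In the middle of the order stood the mitochondrial transporters Abcb8 (58.4 TPM), Abcb6 (26.8) and Abcb10 (19.95). Abcf3 had 52.5, Abca7 44.8, Abcc5 37.2 and the lysosomal cobalamin transporter Abcd4 19.9 TPM. Abcc10 (7.22), Abcc3 (6.95), Abcb1b (6.42) and Abcg2 (4.86) were low, and Abcb9 (1.046), Abca4 (0.957), Abca5 (0.466), Abcb1a (0.332), Abcg4 (0.259) and Abcc12 (0.0677) were lower still. In this order 19 of the 26 neighbouring pairs overlapped over the 12 libraries. Clear steps included that between Abcf2 and Abcc1, where the lowest value of Abcf2 was 124 and the highest of Abcc1 106 TPM, and that between Abcg2 and Abcb9, with 3.04 and 1.31 TPM. By subfamily, F held 25.7%, A 17.5%, C 17.3%, D 15.4%, E 12.03%, B 11.6% and G 0.418% of the summed TPM.

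**Figure D1:**
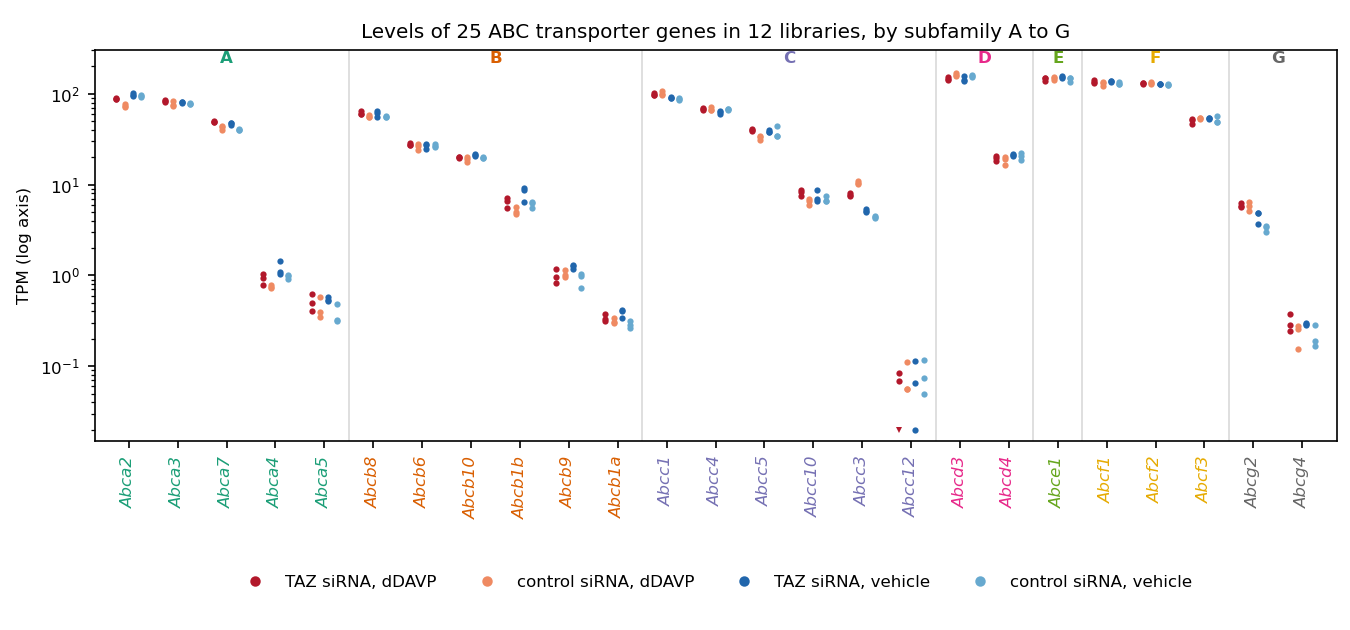
TPM on a log axis for 25 of the 27 ABC transporter genes, grouped by subfamily A to G and ordered by mean within it; each point is a library, coloured by group, and the triangle is a library at 0. Abcd3 and Abce1 stand at the top, with means of 153 and 147 TPM, and Abcc12 at the bottom with 0.0677; within most genes the 4 groups lie close together.

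Of the genes that missed the count rule, 14 had 0 counts in each of the 12 libraries and 7 had low counts. Abca1 and Abcg1, the cholesterol exporters left out by name, also had 0 counts in each library. Abcc12 was just inside the rule, with 10 or more counts in 3 libraries of 3 different groups, and Abca17 was just outside, with 10 counts in 1 library. Abcc2, the apical conjugate exporter of proximal tubule and liver, had 7 counts in 1 library and 0 in the other 11. The other 26 genes reached 10 counts in each of the 12 libraries, and each of the 27 passed the filter for testing.

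Total counts were 45095331 to 61725339 per library, and the 27 genes took 0.201% to 0.210% of them. Wwtr1 was at 108, 127 and 109 CPM with TAZ siRNA and dDAVP against 174, 161 and 164 with control siRNA and dDAVP, and at 119, 114 and 116 CPM with TAZ siRNA and vehicle against 179, 186 and 177 with control siRNA and vehicle (CPM is edgeR's depth-scaled count with TMM factors). Each of 10 principal cell markers had counts, but Elf5 was at only 0 to 0.164 CPM, and 8 passed the filter for testing. Their sum was 508 to 536 CPM for TAZ siRNA plus dDAVP and 531 to 579 for control siRNA plus dDAVP. It was 459 to 507 CPM for TAZ siRNA plus vehicle and 499.7 to 539 for control siRNA plus vehicle. In this order of groups Aqp2 was at 9.11 to 13.7, 29.3 to 44.8, 0 to 0.145 and 0.337 to 0.343 CPM. Scnn1a went the other way with dDAVP, at 112 to 118, 88.9 to 91.2, 134 to 141 and 128 to 129 CPM. The summed intercalated cell markers moved with the groups, at 187 to 204, 217 to 229, 145 to 162 and 162 to 174 CPM in the same order of groups. The sum came mainly from Atp6v1b1 (80.6 to 105 CPM over the 12 libraries), Car2 (54.5 to 88.5) and Aqp6 (8.87 to 38.0). Of the 8, Slc26a4, Foxi1 and Kit had no count in any library. The summed proximal tubule markers were at 125 to 136, 153 to 169, 139 to 154 and 180.4 to 189.8 CPM, mainly through Lrp2. Of these 7 markers only 2 passed the filter for testing, and Slc22a6 and Slc22a8 had no count in any library. Podxl, the 1 podocyte marker of 4 with counts, was at 79.8 to 81.4, 54.2 to 59.4, 109 to 112 and 91.4 to 94.96 CPM. The part of these markers in the results below was not tested, and in bulk samples fewer cells of a type and less RNA per cell cannot be told apart. Endothelial markers summed to at most 0.275 CPM and immune markers to at most 4.71 CPM. For thick limb and distal tubule markers the highest sum was 0.581 CPM, and for fibroblast markers 7.16 CPM.

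Log2 fold changes below are given ± SE from edgeR's quasi-likelihood test fitted to all 12 libraries, and the threshold for a call was 0.05 on the p adjusted by Benjamini-Hochberg over 15932 genes. Over dDAVP against vehicle with TAZ siRNA, 6 of the 27 genes were called higher and 1 lower, which is 25.9%, beside 10.8% of all genes tested (6.38% higher and 4.41% lower). For dDAVP against vehicle with control siRNA the counts were 5 higher and 2 lower, again 25.9%, beside 19.2% of all genes (9.72% and 9.48%). For TAZ siRNA against control siRNA, 4 were higher and 2 lower with dDAVP (22.2%, beside 10.7% of all genes, 5.77% and 4.97%). With vehicle 2 were higher and 1 lower (11.1%, beside 6.3% of all genes, 3.19% and 3.11%). The count of 3 with vehicle was 6 without TAZ siRNA vehicle replicate 1 and 1 without TAZ siRNA vehicle replicate 2 or 3 or control siRNA vehicle replicate 1 or 3. The count of 7 for dDAVP with TAZ siRNA was 4 without TAZ siRNA dDAVP replicate 1 or 3. One gene is 3.7% of the 27, so these shares move in coarse steps. The median log2 fold changes of the 27 were 0.03, 0.02, 0.06 and 0.07 in the order of these comparisons, and those of all genes lay within 0.01 of 0.

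By subfamily, none of the 7 genes of B was called in any of these 4 comparisons, nor was Abce1. In C, 3 of 6 were called for dDAVP with each siRNA, and 2 of 6 for the TAZ siRNA with either treatment. In A the calls fell on Abca2 and Abca7 alone, and the calls included Abcd3 in D, Abcf2 in F and Abcg2 in G. In all 10 genes were called in at least 1 of the 4 comparisons and 17 in none.

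**Figure D2:**
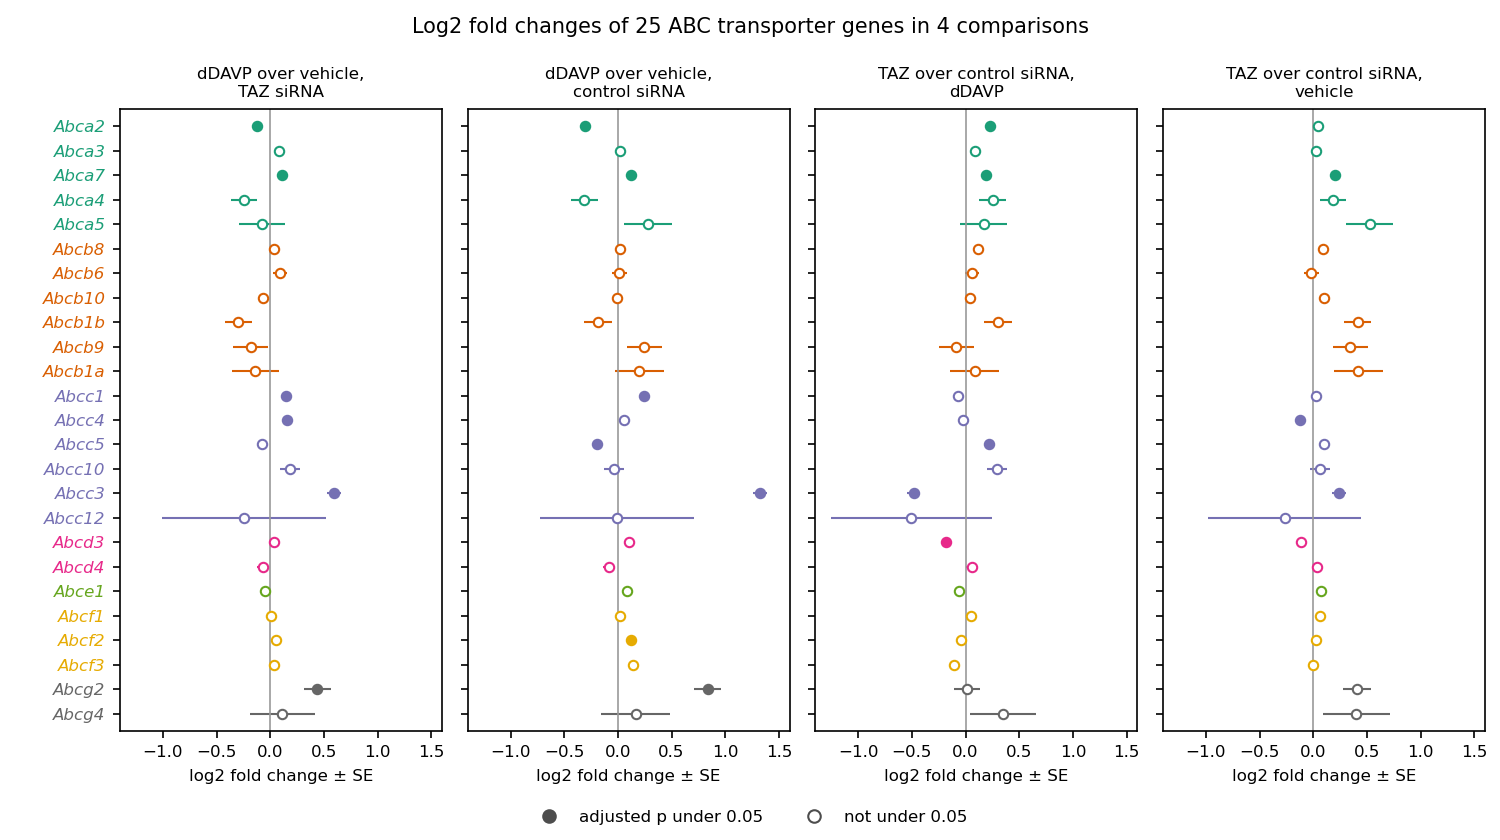
Log2 fold change ± SE of 25 of the 27 genes (rows, coloured by subfamily) in 4 comparisons (columns); filled points have an adjusted p under 0.05. Abcc3 lies farthest to the right in both dDAVP columns, at 0.60 with TAZ siRNA and 1.32 with control siRNA, and to the left for TAZ siRNA over control siRNA with dDAVP, at -0.48.

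Abcc3 (MRP3; gene identifier 76408, chr11:94343295-94393017), a basolateral exporter of glucuronide and glutathione conjugates, had the largest dDAVP changes among the genes called. It was at 14.1, 15.1 and 14.4 CPM with TAZ siRNA and dDAVP and at 19.7, 21.6 and 19.6 with control siRNA and dDAVP. With vehicle it was at 9.12, 10.1 and 9.58 CPM with TAZ siRNA and at 7.90, 8.13 and 8.29 with control siRNA. The 4 groups did not overlap, and the TAZ siRNA libraries lay below the control siRNA libraries with dDAVP but above them with vehicle.

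dDAVP raised Abcc3 by 0.60 ± 0.07 with TAZ siRNA, a ratio of 1.51 (edgeR, adjusted p = 5.8e-06), and by 1.32 ± 0.07 with control siRNA, a ratio of 2.50 (adjusted p = 1.52e-10). The difference of the 2 responses, TAZ siRNA minus control siRNA, was -0.72 ± 0.09 (edgeR, adjusted p = 0.00374). Abcc3 was the 1 gene of the 27 called in that test and 1 of 5 among all genes (0.0314%; 0.0126% with a larger and 0.0188% with a smaller response under TAZ siRNA). TAZ siRNA lowered it by 0.48 ± 0.06 on the log2 scale with dDAVP (edgeR, adjusted p = 8.04e-05). With vehicle it was higher by 0.24 ± 0.07 (edgeR, adjusted p = 0.0427), a call that was lost without any 1 of the 3 control siRNA vehicle libraries or without TAZ siRNA vehicle replicate 2 or 3 (adjusted p up to 0.19 over the alternatives). The table gives 4 transcript models for Abcc3, and the share of its counts assigned to the most used one ran from 0% to 59.7% between libraries, so only the sum per gene was compared.

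**Figure D3:**
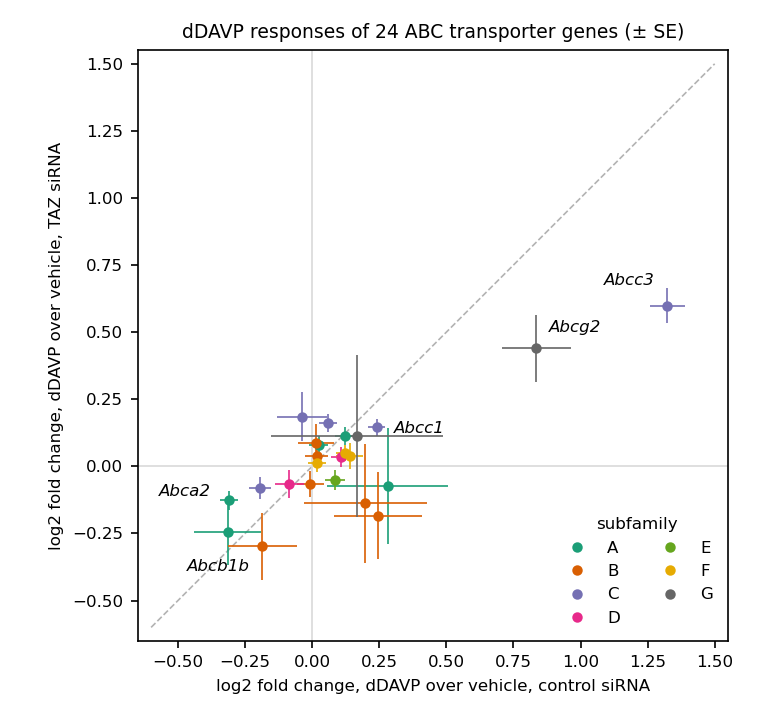
Log2 fold change for dDAVP over vehicle with TAZ siRNA (vertical axis) against that with control siRNA (horizontal axis), ± SE, for 24 genes; Abcc12, with at most 14 counts in a library, is not drawn, and the dashed line marks equal responses. Abcc3 lies below the line at 0.60 and 1.32; Abcg2 lies below it at 0.44 and 0.84, a difference that was not called.

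Abcg2 (BCRP; gene identifier 26357, chr6:58584491-58692451), the apical exporter of urate and drugs, rose with dDAVP under both siRNAs. It was at 4.70, 5.05 and 4.81 CPM with TAZ siRNA and dDAVP and at 5.29, 4.33 and 4.84 with control siRNA and dDAVP, and these groups overlapped. In vehicle libraries it stood at 2.94, 3.89 and 3.90 CPM with TAZ siRNA and at 2.85, 2.42 and 2.80 with control siRNA, and each dDAVP library lay above each vehicle library. The change was 0.44 ± 0.12 with TAZ siRNA (edgeR, adjusted p = 0.0299) and 0.84 ± 0.13 with control siRNA (adjusted p = 0.000135). The first of these calls was lost in 5 of 12 alternatives, including without TAZ siRNA vehicle replicate 1 or without any 1 of the TAZ siRNA dDAVP libraries (adjusted p up to 0.137). The difference of the responses was -0.40 ± 0.18 (edgeR, unadjusted p = 0.0406, adjusted p = 0.59), and the interval of -0.81 to 0.02 leaves its size unsettled. With vehicle the value for TAZ siRNA over control siRNA was 0.41 ± 0.13 (adjusted p = 0.0743, and 0.0145 without TAZ siRNA vehicle replicate 1), and with dDAVP it was 0.01 ± 0.12 (adjusted p = 0.97).

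Nearly all Abcg2 counts, 99.1%, were assigned to 1 of its 10 transcript models, which starts at position 58640503 of chromosome 6. RefSeq promoter windows of GRCm38.p6, which run from upstream of a start site to just past it, were found for 20 of the 27 genes. Abcc3 and Abcc1 had no window, so their promoters were not searched. The window at this start is printed because it holds a full cAMP response element, TGACGTCA, the palindrome bound by CREB-family factors, which is in capitals (chr6:58640296-58640595, plus strand).
Abcg2 promoter: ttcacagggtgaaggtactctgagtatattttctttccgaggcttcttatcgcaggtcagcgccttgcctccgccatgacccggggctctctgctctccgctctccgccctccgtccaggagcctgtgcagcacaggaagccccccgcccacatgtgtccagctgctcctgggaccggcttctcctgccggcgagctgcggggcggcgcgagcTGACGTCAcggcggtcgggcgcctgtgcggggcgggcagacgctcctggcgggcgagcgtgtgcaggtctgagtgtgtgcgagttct
The element lies at 58640509 to 58640516, at -37 to -30 from the start site of the window, just past the start of the model that took most counts. Searched on both strands, the element was in 2 of the 26 windows of these 20 genes, beside 1.79% of all 32817 windows. The other window was that of Abce1, at 79711743 to 79711750 of chromosome 8, and the dDAVP response of Abce1 was not called with either siRNA. The short site TGACG, which overlaps the full element, was in 8 of the 26 windows, from 6 of the 20 genes, beside 20.8% of all windows. For Abcf2 this was 1 site in 2 overlapping windows. The antioxidant response core TGACNNNGC was in 5 of the 26 windows, from only 3 of the 20 genes (12.4% of all windows). The TEAD motif GGAATG was in 3 windows of 3 genes (14.7%) and the AP-1 motif TGANTCA in 0 (7.81%). A match is a description of letters, and no binding was measured.

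Abcc1 (MRP1; gene identifier 17250, chr16:14361453-14474878), the basolateral exporter of glutathione conjugates, rose with dDAVP by a small step. It was at 217, 223 and 216 CPM with TAZ siRNA and dDAVP and at 198, 195 and 200.2 with TAZ siRNA and vehicle (0.15 ± 0.03, edgeR adjusted p = 0.0053). With control siRNA it was at 238, 229 and 221 CPM with dDAVP and at 195, 197 and 190.0 with vehicle (0.24 ± 0.03, adjusted p = 2.96e-05). The dDAVP libraries lay above the vehicle libraries under both siRNAs. TAZ siRNA over control siRNA gave -0.07 ± 0.03 with dDAVP and 0.03 ± 0.03 with vehicle, neither of which was called.

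Abcc4 (MRP4; gene identifier 239273, chr14:118482692-118707856), the cyclic nucleotide exporter, was at 145, 148 and 146 CPM with TAZ siRNA and dDAVP and at 155, 149 and 143 with control siRNA and dDAVP. With vehicle it was at 134, 131 and 127 CPM with TAZ siRNA and at 142, 140.5 and 146 with control siRNA, so that the TAZ siRNA vehicle libraries lay below every other library. dDAVP raised it by 0.16 ± 0.03 with TAZ siRNA (edgeR, adjusted p = 0.00384), and the value with control siRNA was 0.06 ± 0.03 (adjusted p = 0.25). The difference of the responses was 0.10 ± 0.05 (adjusted p = 0.62), with an interval of -0.01 to 0.21. With vehicle TAZ siRNA lowered it by 0.13 ± 0.03 on the log2 scale (edgeR, adjusted p = 0.0346), a call lost in 6 of 12 alternatives, among them without TAZ siRNA vehicle replicate 2 or 3 or control siRNA vehicle replicate 1 or 3 (adjusted p up to 0.132).

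Abcc5 (MRP5; gene identifier 27416, chr16:20331303-20426428), another cyclic nucleotide exporter, went the other way with dDAVP. It was at 88.8, 96.7 and 90.9 CPM with TAZ siRNA and dDAVP and at 81.9, 78.0 and 77.9 with control siRNA and dDAVP. In vehicle libraries it stood at 99.0, 97.3 and 95.9 CPM with TAZ siRNA and at 87.1, 95.1 and 89.9 with control siRNA. The control siRNA dDAVP libraries lay below all others. dDAVP lowered it by 0.19 ± 0.04 on the log2 scale with control siRNA (edgeR, adjusted p = 0.00213), and the value with TAZ siRNA was -0.08 ± 0.04 (adjusted p = 0.23). TAZ siRNA raised it by 0.22 ± 0.04 with dDAVP (edgeR, adjusted p = 0.00184), and the value with vehicle was 0.10 ± 0.04 (adjusted p = 0.14). The other 2 genes of C, Abcc10 and Abcc12, were called in none of the comparisons.

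Among the lipid transporters of subfamily A, Abca2 and Abca7 changed and the other 3 were not called. Abca2 (gene identifier 11305, chr2:25428599-25448544), a lipid transporter of endosomes and lysosomes, was at 274, 280.2 and 268 CPM with TAZ siRNA and dDAVP and at 242, 227 and 235 with control siRNA and dDAVP. With vehicle it was at 308, 291 and 298 CPM with TAZ siRNA and at 286, 287 and 299 with control siRNA. The control siRNA dDAVP libraries were again the lowest. dDAVP lowered it by 0.13 ± 0.03 on the log2 scale with TAZ siRNA (edgeR, adjusted p = 0.0218) and by 0.31 ± 0.03 with control siRNA (adjusted p = 3.75e-06). The first of these calls was lost without TAZ siRNA vehicle replicate 1 or TAZ siRNA dDAVP replicate 1 or 3 (adjusted p up to 0.0937). TAZ siRNA raised it by 0.22 ± 0.03 with dDAVP (edgeR, adjusted p = 0.00035), and the value with vehicle was 0.04 ± 0.03 (adjusted p = 0.56). The difference of the dDAVP responses was 0.18 ± 0.05 (adjusted p = 0.25).

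Abca7 (gene identifier 27403, chr10:79996453-80015572), which moves phospholipids and is linked to phagocytosis, was the gene called higher in each of the 4 comparisons. It was at 125, 121 and 127 CPM with TAZ siRNA and dDAVP and at 112, 103 and 111 with control siRNA and dDAVP. In vehicle libraries it stood at 116, 112 and 116 CPM with TAZ siRNA and at 99.8, 100.1 and 99.9 with control siRNA. TAZ siRNA raised it by 0.19 ± 0.03 with dDAVP (edgeR, adjusted p = 0.00149) and by 0.20 ± 0.03 with vehicle (adjusted p = 0.0022), and both calls held in each of 12 alternatives. The dDAVP changes were 0.11 ± 0.03 with TAZ siRNA (adjusted p = 0.0446) and 0.12 ± 0.03 with control siRNA (adjusted p = 0.0206). These were lost in 8 and 5 of 12 alternatives, in each case mainly by leaving out a library of the groups compared, with adjusted p up to 0.211 and 0.112. Abca3, the phospholipid transporter of lamellar bodies, had values of 0.08 ± 0.04 with TAZ siRNA and 0.02 ± 0.04 with control siRNA for dDAVP, and of 0.08 ± 0.04 with dDAVP and 0.03 ± 0.04 with vehicle for the TAZ siRNA, and none was called.

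In subfamily B the multidrug gene Abcb1b was at 10.8, 9.00 and 11.7 CPM with TAZ siRNA and dDAVP and at 9.41, 7.93 and 8.27 with control siRNA and dDAVP. With vehicle it was at 10.1, 14.8 and 13.9 CPM with TAZ siRNA and at 10.1, 10.2 and 8.91 with control siRNA. Replicate 1 of TAZ siRNA with vehicle lay among the control values, apart from its other 2 libraries. The value for TAZ siRNA over control siRNA with vehicle was 0.41 ± 0.12 (edgeR, adjusted p = 0.0609), and without that library it was 0.56 (adjusted p = 0.00268). DESeq2 also called it with all 12 libraries kept. With dDAVP the value for TAZ siRNA over control siRNA was 0.30 ± 0.13 (edgeR, adjusted p = 0.157). The dDAVP values were -0.30 ± 0.12 with TAZ siRNA (adjusted p = 0.149, and 0.00838 without that library) and -0.19 ± 0.13 with control siRNA (adjusted p = 0.37). Its related neighbour Abcb1a had 0.515 to 0.797 CPM over the 12 libraries. The value of Abcb1a for TAZ siRNA over control siRNA with vehicle was 0.42 ± 0.22 (edgeR, adjusted p = 0.32). The mitochondrial transporters Abcb6, Abcb8 and Abcb10 had log2 fold changes between -0.07 and 0.11 in the 4 comparisons, and none was called.

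In subfamily D, Abcd3 (PMP70; gene identifier 19299, chr3:121758904-121815302) was lower with the TAZ siRNA under dDAVP. It was at 192, 196 and 186 CPM with TAZ siRNA and dDAVP and at 224, 214.9 and 213 with control siRNA and dDAVP (-0.19 ± 0.04, edgeR adjusted p = 0.00388). With vehicle it was at 197, 184 and 179 CPM with TAZ siRNA and at 209, 199.8 and 197 with control siRNA (-0.11 ± 0.04, adjusted p = 0.0879). In both treatments the TAZ siRNA libraries lay below the control siRNA libraries, with vehicle only narrowly, and the first of these calls held in each of 12 alternatives. Over dDAVP against vehicle the values were 0.03 ± 0.04 with TAZ siRNA and 0.11 ± 0.04 with control siRNA (adjusted p = 0.65 and 0.058). The last of these was called in 4 of 12 alternatives, and the vehicle value for TAZ siRNA over control siRNA in 3 of 12. DESeq2 and the replicate block were among them in both cases, so these 2 values lie near the threshold.

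The ribosome ATPases of subfamilies E and F moved little. Abcf2 (gene identifier 27407, chr5:24565341-24577467) was at 134, 138 and 132 CPM with control siRNA and dDAVP and at 125, 123 and 123 with control siRNA and vehicle (0.12 ± 0.03, edgeR adjusted p = 0.00956; 0.071 without control siRNA dDAVP replicate 2). With TAZ siRNA it was at 134, 129 and 129 CPM with dDAVP and at 124, 126 and 129 with vehicle (0.05 ± 0.03, adjusted p = 0.36). Abce1 had dDAVP values of -0.05 ± 0.04 with TAZ siRNA and 0.09 ± 0.04 with control siRNA, and TAZ siRNA values of -0.07 ± 0.04 with dDAVP and 0.07 ± 0.04 with vehicle. Abcf1 had values of 0.01 ± 0.03, 0.02 ± 0.03, 0.05 ± 0.03 and 0.06 ± 0.03 in the same order, and its highest interval ran from -0.02 to 0.14. None of these values of Abce1 and Abcf1 was called. Of the remaining genes, none of which was called, the values nearest the threshold were 0.14 ± 0.05 for Abcf3 with dDAVP and control siRNA (adjusted p = 0.057) and 0.29 ± 0.09 for Abcc10 in TAZ siRNA over control siRNA with dDAVP (adjusted p = 0.054). Abcd4 stayed between -0.09 and 0.06 in the 4 comparisons. Genes at the bottom of the order, Abca4, Abca5, Abcb9, Abcg4 and Abcc12, had values between -0.50 and 0.52, with SE of 0.12 to 0.76, so that changes of that size were not detectable at this depth in the lowest of them.

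**Figure D4:**
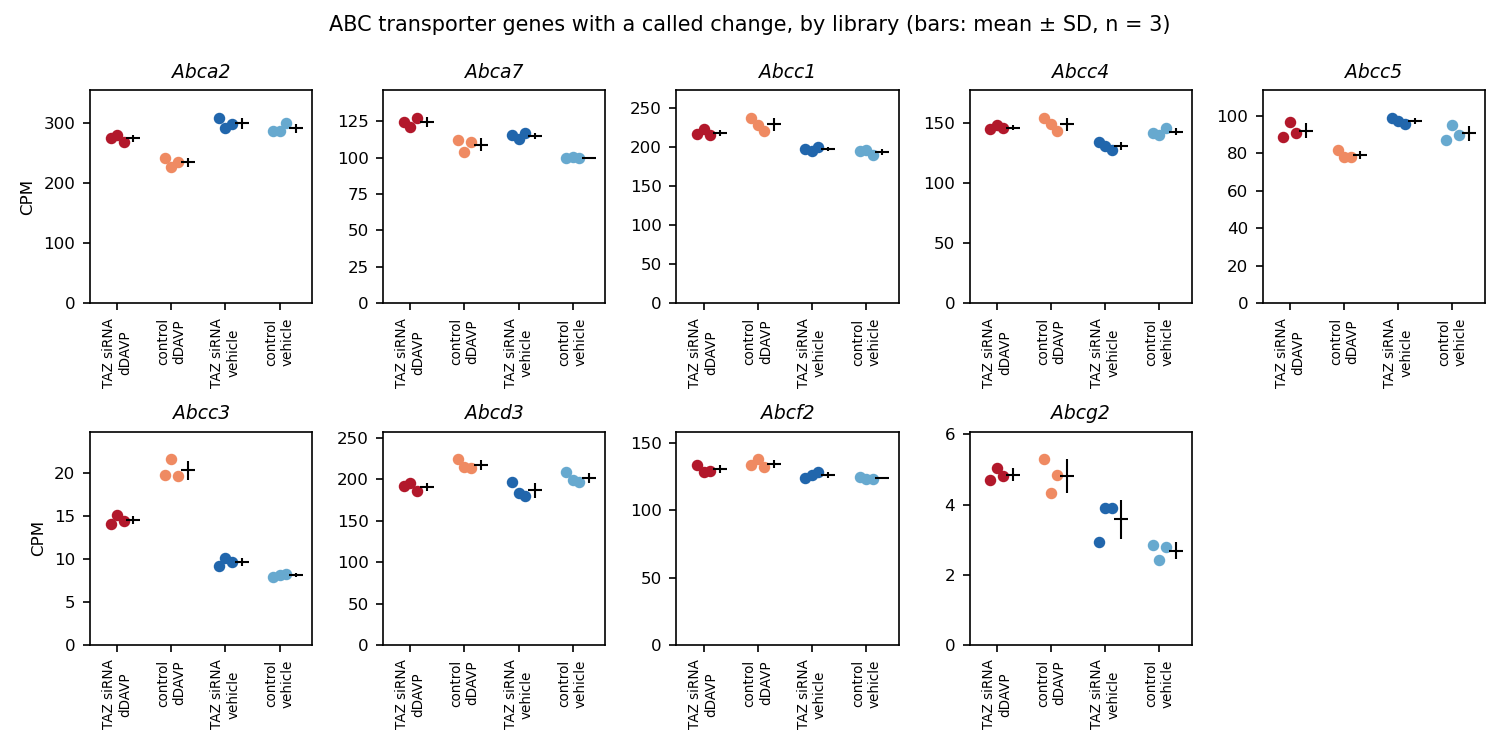
CPM per library (points) with mean ± SD (bars, n = 3) for 9 genes called in at least 1 of the 4 comparisons, in the order TAZ siRNA with dDAVP, control siRNA with dDAVP, TAZ siRNA with vehicle and control siRNA with vehicle; each vertical axis starts at 0. Abcc3 shows the widest spread between groups, from 8.11 ± 0.20 CPM with control siRNA and vehicle to 20.3 ± 1.1 with control siRNA and dDAVP, while Abcf2 stays between 123 and 138 CPM.

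Most of the enzymes that make and conjugate glutathione or other conjugates, products that ABCC pumps carry, were called higher with dDAVP. Of 15 tested with TAZ siRNA, 10 were higher, 0 lower and 5 not called, with a median of 0.26, beside 6.38% higher and 4.41% lower over all genes. With control siRNA 10 were higher, 1 lower and 4 not called, with a median of 0.34, beside 9.72% higher and 9.48% lower over all genes. The glucuronosyltransferase Ugt1a6a was at 2.22, 2.89 and 2.62 CPM with TAZ siRNA and dDAVP against 0.323, 0.211 and 0.387 with TAZ siRNA and vehicle (3.05 ± 0.23, edgeR adjusted p = 5.65e-08). With control siRNA it was at 3.69, 2.90 and 3.09 CPM with dDAVP against 0.319, 0.382 and 0.549 with vehicle (2.94 ± 0.22, adjusted p = 3e-08). Genes of the Ugt1a cluster share their last exons, so the assignment of its counts is uncertain. Gclc, the catalytic subunit of glutamate-cysteine ligase, rose by 0.33 ± 0.05 with TAZ siRNA and by 0.58 ± 0.05 with control siRNA (adjusted p = 8.11e-05 and 7.35e-08).

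Gsta4, a glutathione transferase, was lower with TAZ siRNA under dDAVP. It was at 12.4, 13.1 and 11.8 CPM with TAZ siRNA and dDAVP and at 18.04, 19.2 and 20.1 with control siRNA and dDAVP, and TAZ siRNA lowered it there by 0.62 ± 0.10 on the log2 scale (edgeR, adjusted p = 0.000761). The difference of its dDAVP responses was -0.43 ± 0.15 and was not called (adjusted p = 0.44). For TAZ siRNA over control siRNA the enzyme list had 0 higher and 2 lower with dDAVP and 1 higher and 0 lower with vehicle.

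Of 8 tested regulators of drug transporter genes, 4 were higher and 0 lower for dDAVP with TAZ siRNA (10.8% of all genes called in either direction) and 2 higher and 1 lower with control siRNA (19.2% of all genes). For TAZ siRNA over control siRNA, 0 were higher and 3 lower with dDAVP (10.7% of all genes) and 0 higher and 2 lower with vehicle (6.3% of all genes). Nfe2l2, which encodes the antioxidant response factor NRF2, rose with dDAVP by 0.15 ± 0.04 with TAZ siRNA and by 0.20 ± 0.04 with control siRNA (edgeR, adjusted p = 0.0156 and 0.00121). Rxra, a nuclear receptor partner, rose by 0.30 ± 0.04 and 0.23 ± 0.04 in the same order, and TAZ siRNA lowered it by 0.13 ± 0.04 on the log2 scale with dDAVP and by 0.20 ± 0.04 with vehicle. Ahr, the aryl hydrocarbon receptor, was lower with TAZ siRNA too, with changes of -0.15 ± 0.04 with dDAVP and -0.23 ± 0.04 with vehicle (adjusted p = 0.0271 and 0.00302). The xenobiotic receptors Nr1i2 and Nr1i3 did not pass the filter.

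**Figure D5:**
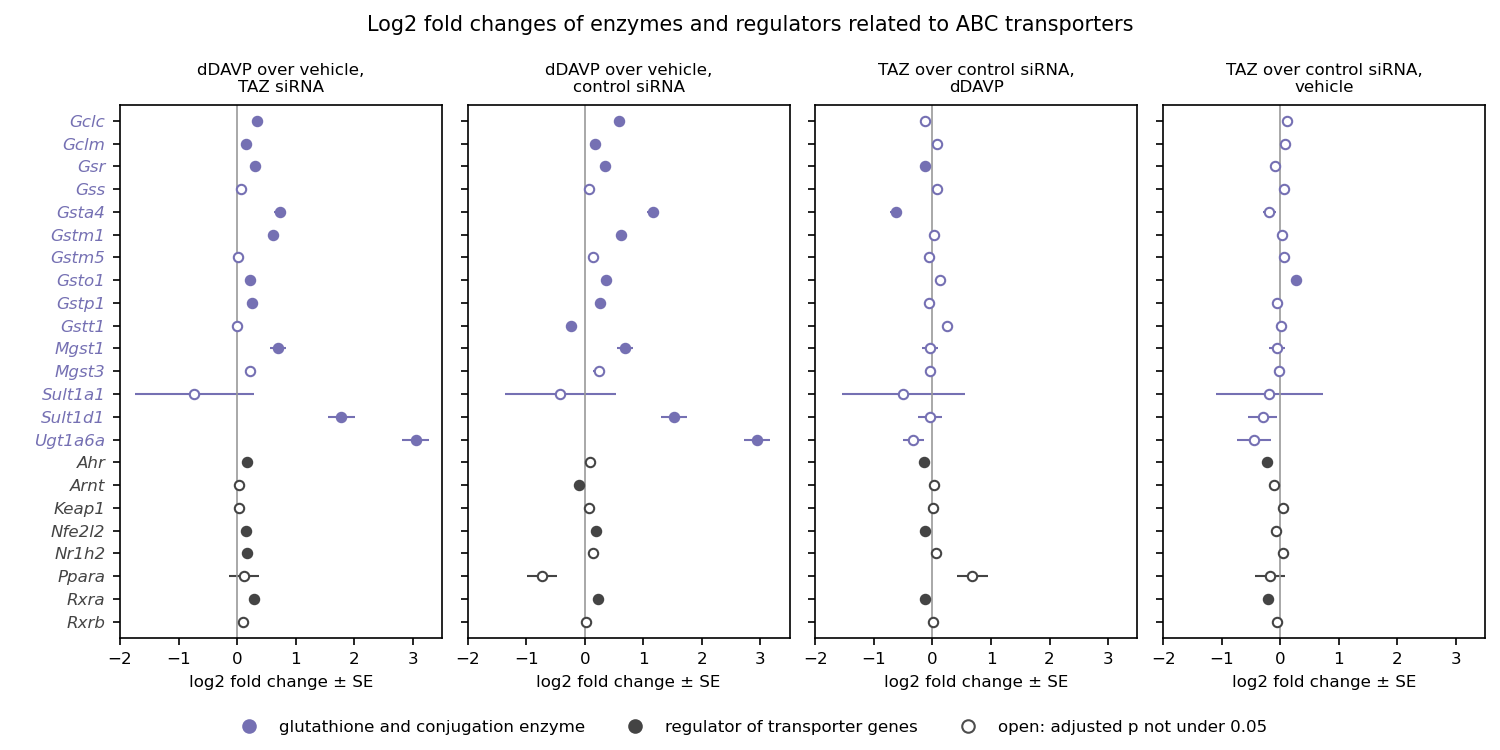
Log2 fold change ± SE in the same 4 comparisons for 15 glutathione and conjugation enzymes (purple) and 8 regulators (grey); filled points have an adjusted p under 0.05. Ugt1a6a stands farthest to the right in both dDAVP columns, at 3.05 with TAZ siRNA and 2.94 with control siRNA.

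The other lists are read against the same shares of all genes called in either direction, which were 10.8% and 19.2% for dDAVP with TAZ siRNA and with control siRNA, and 10.7% and 6.3% for the TAZ siRNA with dDAVP and with vehicle. Of 12 genes of peroxisomal fatty acid handling, beside subfamily D, 1 was higher and 1 lower for dDAVP with TAZ siRNA and 3 higher and 1 lower with control siRNA. Hsd17b4, a peroxisomal beta-oxidation enzyme, was higher in both, by 0.35 ± 0.05 and 0.40 ± 0.05 (edgeR, adjusted p = 6.22e-05 and 7.86e-06). For the TAZ siRNA 0 were higher and 1 lower with dDAVP, and 0 were called with vehicle. Of 14 mitochondrial iron-sulfur and heme genes, 0 were higher and 1 lower for dDAVP with TAZ siRNA, and 1 higher and 1 lower with control siRNA. For the TAZ siRNA 0 were called with dDAVP and 1 was higher with vehicle.

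Of 9 translation partners of the E and F ATPases, 0 were called for dDAVP with TAZ siRNA (10.8% of all genes) and 3 were higher with control siRNA (19.2%). For the TAZ siRNA 1 was higher and 2 lower with dDAVP (10.7%) and 1 was higher with vehicle (6.3%), and the higher gene in both cases was Gcn1, the ribosome-bound activator of the kinase GCN2 (0.16 ± 0.03 and 0.12 ± 0.03). Of 5 tested scaffold genes that hold apical transporters, dDAVP raised Ezr and Slc9a3r1 and lowered Msn under both siRNAs, and TAZ siRNA raised Msn and Slc9a3r2 in both treatments. Msn, which encodes moesin, changed by -0.28 ± 0.04 for dDAVP with TAZ siRNA and by -0.33 ± 0.04 with control siRNA (edgeR, adjusted p = 0.000313 and 3.22e-05). Tap1 and Tap2, ABC peptide transporters named outside the A to G symbols, were tested and not called in any of the 4 comparisons, and Cftr was at 0 to 0.164 CPM.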

How the data were processed

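RNA sequencing of 12 libraries was used at the gene level. The counts are estimated counts that the authors deposited: checked on the transcript values, they had been rounded up to whole numbers in 100% of 157342 low values (tolerance 0.05), and no source used here names the tool that made them. The TPM values are also the authors' own, deposited beside the counts, and served for levels per length. Bowtie 0.12.2 is named in the submitters' processing notes, with no role. A further 24 sample columns (FPKM) were not used.

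Counts were tested in R 4.3.3 with edgeR 4.0.16 (robust quasi-likelihood, TMM factors, filterByExpr at a minimum count of 10, 4 groups, 15932 genes, Benjamini-Hochberg threshold 0.05). SE is the log2 fold change over the square root of F. Intervals were built from SE with the residual degrees of freedom of the fit alone, so they are wider than the test's own. The biological coefficient of variation was 5.11%, and 3 counts are 0.0486 to 0.0665 CPM per library before TMM factors, for counting error only. DESeq2 1.42.0, limma-voom (limma 3.58.1), relative log expression factors, no filter, the compared groups alone, a replicate block and leaving out each library were alternatives. The fit was also run on data simulated from the same kind of model, which cannot show whether that model suits these libraries.

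The genes, the related lists and the markers were chosen with earlier results of these data known. Genes named with full values were those called in a comparison and a list of well-known pumps (Abca3, Abcb1a, Abcb1b, Abcc1 to Abcc5 where kept, Abcd3, Abce1, Abcf1 and Abcg2); the others are given by range. Chi-square over degrees of freedom was 4.25 to 13.5 between replicates of a group, more than counting noise alone would give. This cannot tell separate cultures from separate libraries of the same culture. Some genes are counted but not reported here by name.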

Additional observations from a re-analysis of the deposited data

Results flagged for a closer look

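The dDAVP response of Abcc3 differed between the siRNAs, and the difference itself was tested. The response with TAZ siRNA minus that with control siRNA was -0.72 ± 0.09 on the log2 scale (edgeR interaction contrast, adjusted p = 0.00374, 3 libraries per group). With each siRNA the 3 dDAVP libraries lay above the 3 vehicle libraries. It was called in each alternative run, including those that left out 1 library.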

How the results depend on the processing

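Of 24 calls of ABC genes, 15 held in each alternative run, 9 were lost in at least 1 and 0 reversed. The difference of the dDAVP responses gave 1 call, Abcc3, in each alternative run; the compared groups alone cannot give that contrast. For TAZ siRNA over control siRNA with vehicle, 3 ABC genes were called, against 5 with DESeq2 and 1 with the compared groups alone, and 1 to 6 when a library was left out. For dDAVP with TAZ siRNA the 7 calls became 4 to 7 when a library was left out. Over all genes, edgeR called 5 in the difference of responses, where 1295 had an unadjusted p under 0.05, and DESeq2 called 77. The cause of these changes was not tested.

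Uncalled values near 0 changed sign. For dDAVP with control siRNA, leaving out a library gave -0.0268 to 0.0527 for Abca3 and -0.0037 to 0.0367 for Abcf1, both lowest without control siRNA dDAVP replicate 1. For dDAVP with TAZ siRNA, Abcf1 was at -0.00698 with no filter, at -0.0173 to 0.0276 when a library was left out, and at -0.0041 without TAZ siRNA vehicle replicate 2. For TAZ siRNA over control siRNA with dDAVP, Abcg2 was at -0.00425 with no filter, at -0.0681 to 0.0782 when a library was left out, and at -0.0244 without TAZ siRNA dDAVP replicate 2.

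Same-numbered libraries of different groups correlated at -0.04 to 0.08 in their deviations from group means (median 0.03). Libraries of different numbers correlated at -0.06 to 0.06 (median -0.02), and 7 of 12 libraries correlated best with one of their own number. Correlations this weak cannot decide whether the replicate numbers mark pairs or batches. With the replicate block, 7 ABC genes were called for dDAVP with TAZ siRNA, 9 for dDAVP with control siRNA, 6 for the TAZ siRNA with dDAVP, 4 for the TAZ siRNA with vehicle and 1 in the difference. Genes at a few counts, such as Abcc12, limit what depth can show.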
